A study of Mus musculus with 12 samples.

Results

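The Hox genes of the descending aorta were taken as all gene probes whose name in the array files is Hoxa, Hoxb, Hoxc or Hoxd followed by a number. This gave 44 probes for 39 genes, among 55681 gene probes and 28289 named genes in all. RNA came from the descending aorta of male C57BL/6 mice, 6 of them aged 6 months and 6 aged 20 months, and was hybridised to 1-colour (Cy3) Agilent arrays with 1 array per mouse. All animals were of this inbred strain on standard chow, with no genetic change or drug treatment named in the labels. The vessel had been rinsed with buffered saline through the heart and freed of surrounding fat and connective tissue, and each value is an average over all cells left in the sample, markers of heart muscle and brown fat among them, as described further on. In such bulk RNA, fewer cells of a type and less RNA per cell cannot be told apart. The series asks how vascular gene expression differs between adult and old mice. On 2 arrays, 6 months replicate 4 and 20 months replicate 5, more gene probes were well above background (55.8% and 55.5%) than on the other 10 (47.5% to 50.2%).

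Hox genes encode homeodomain transcription factors that give cells a position along the body axis. In the mouse they lie in 4 clusters, Hoxa to Hoxd, and members at the same place in different clusters form a paralogue group. Low-numbered groups are expressed from anterior levels on and high-numbered groups only towards the tail, and many mesenchymal and smooth muscle cells keep such a pattern in adult life. Hox proteins bind DNA with cofactors of the Pbx and Meis families, and the clusters are held on or off by Trithorax and Polycomb complexes and are induced by retinoic acid in the embryo.

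A probe is a strand of 60 bases that reads 1 stretch of a transcript, and a few probes of coding sequence are shown because they fall in the parts that make a Hox gene. Capitals in Hoxc11, Hoxc12 and Hoxd10 mark codons of the third helix of the homeodomain, which sits in the major groove of DNA. For Hoxd10 these lie in the earlier part of the helix and for the others in the later part. Capitals in Hoxa6 mark the codons of the core of the hexapeptide, the motif that contacts Pbx proteins.
Hoxc11: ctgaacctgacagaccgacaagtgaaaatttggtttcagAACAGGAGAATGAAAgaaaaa
Hoxc12: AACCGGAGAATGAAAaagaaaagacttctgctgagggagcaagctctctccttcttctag
Hoxd10: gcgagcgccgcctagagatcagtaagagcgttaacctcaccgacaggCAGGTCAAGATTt
Hoxa6: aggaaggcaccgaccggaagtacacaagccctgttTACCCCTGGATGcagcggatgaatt
All 4 are written 5′ to 3′ as in the array files, in the sense of the transcript. Their places in the mouse build mm9 are chr15:102787022-102787081 on the plus strand for Hoxc11, chr15:102768889-102768948 plus for Hoxc12, chr2:74532280-74532339 plus for Hoxd10 and chr6:52158194-52158253 on the minus strand for Hoxa6.

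Read in all frames of both strands, the codons of the later part of the helix occurred in 4 of 55681 gene probes (0.00718%), those of the earlier part in 44 (0.079%) and those of the hexapeptide core in 4 (0.00718%). Among the 44 Hox probes they occurred in 3, 2 and 1, Hoxc11 holding both parts of the helix. Absence says only that these codons do not lie in the stretch a probe reads. Aligned on the codons of the later part without gaps, the Hoxc11 and Hoxc12 probes were identical at 18 of 21 bases (85.7%). Of the 3 homeobox probes shown, that of Hoxc12 was above background on 1 of 12 arrays and those of Hoxc11 and Hoxd10 on 0. A Hoxb3 probe, not shown, also held the later part of the helix, and both Hoxb3 probes were above background on all 12 arrays. The array's own annotation assigns a Hoxb3 probe also to a transcript of Hoxd3, the 1 case of an accession shared by 2 Hox genes. The probe named for Hoxd3 was above background on 0 of 12 arrays. The probe that stands for Hoxb3 and a further Hoxb3 probe, 1888 bases downstream, were so on all 12.

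The scanner software marks a spot as well above background when its signal exceeds that of the surroundings by a set margin. A gene was counted as detected if any of its probes was so marked on at least 6 of the 12 arrays. By this rule 23 of 39 Hox genes (59.0%) were detected, beside 16932 of 28289 named genes (59.9%). Of the 39, 20 were above background on all 12 arrays, 5 on 1 to 5 arrays and 11 on none. Detection differed by paralogue group. In groups 4 to 8 all 15 genes were detected, in groups 1 to 3 it was 5 of 8, in group 9 it was 3 of 4, and in groups 10 to 13 it was 0 of 12.

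**Figure D1:**
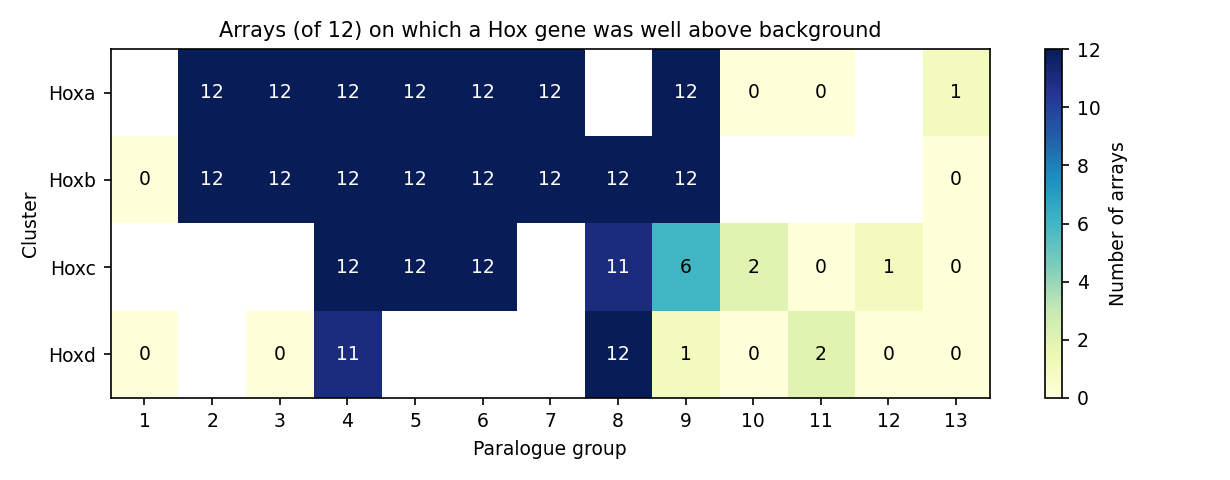
Number of arrays, out of 12, on which a Hox gene was well above background, by cluster (rows) and paralogue group (columns), with white cells where no gene is shown. The genes of groups 4 to 8 are on 11 or 12 arrays, and no gene of groups 10 to 13 is on more than 2.

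The clusters differed in how many members were detected. Hoxa had 8 of 11 and Hoxb 8 of 10, whereas Hoxc had 5 of 9 and Hoxd 2 of 9. In Hoxa the genes from Hoxa2 to Hoxa9 were above background on all 12 arrays, and Hoxa10 and Hoxa11 on none. In Hoxb the same held from Hoxb2 to Hoxb9, with Hoxb1 and Hoxb13 on none. In Hoxc, which has no members of groups 1 to 3, Hoxc4, Hoxc5 and Hoxc6 were on all 12, Hoxc8 on 11 and Hoxc9 on 6. In Hoxd, only Hoxd8 (12 arrays) and Hoxd4 (11 arrays) were detected. Hoxd1, Hoxd3, Hoxd10, Hoxd12 and Hoxd13 were on none. The 3 undetected genes of the anterior groups were therefore Hoxb1, Hoxd1 and Hoxd3.

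For some genes the number of arrays depends on which of their probes is read. For Hoxa9, whose product acts in trunk patterning and in blood stem cells, 1 probe was above background on all 12 arrays. Another, 1430 bases upstream, was so on 3, all of them at 6 months. On the log2 scale defined in the next paragraph, this upstream probe had nearly equal medians, -3.41 at 6 months and -3.42 at 20 months. Its values overlapped, from -3.49 to -3.08 and from -4.16 to -3.31, so the count of arrays does not show a difference in level between the ages. The 2 probes of Hoxd11 were above background on 2 and 0 arrays, those of Hoxa13 on 1 and 0, and those of Hoxb3 both on 12.

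Group 9 and the neighbouring genes mark where detection ended. All values that follow are log2 processed signals minus the 75th percentile of the same array, so 0 is that percentile of the array. Levels of different probes are not set against each other. Hoxc9 had 6 values from -5.70 to -2.03 at 6 months (median -3.55) and from -3.53 to -2.54 at 20 months (median -3.20). It was above background in 2 mice at 6 months and 4 at 20 months, which is the smallest number the rule allows. Just outside it stood Hoxc10 and Hoxd11 with 2 arrays and Hoxd9, Hoxc12 and Hoxa13 with 1.

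Hoxd9 was above background in 20 months replicate 3 alone, at -2.89, while the other mice of that age lay between -5.71 and -4.89 and those at 6 months between -5.90 and -4.59. Hoxc10 was above background in 6 months replicate 4 (-2.01) and 20 months replicate 5 (-0.69), and its other values lay at or below -4.21. Hoxd11 was above background in 20 months replicates 2 and 5 (-2.52 and -2.51), Hoxc12 in 6 months replicate 4 (-2.47) and Hoxa13 in 20 months replicate 5 (-3.08). Over the 12 genes of groups 10 to 13 these are 6 of 144 pairs of gene and array, and 5 of the 6 lie in 6 months replicate 4 or 20 months replicate 5.

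These are the 2 arrays that stood apart over all gene probes. There were 804 probes, that of Hoxc10 among them, above background on these 2 arrays and no other, whereas no other pair of arrays shared more than 97. Of 1174 probes for olfactory receptors, genes of the nasal sensory neurons, 155 and 185 were above background on these 2 arrays, beside 57 to 92 on the others. Without these 2 arrays, 1 pair of a posterior gene and an array remains, that of Hoxd11 in 20 months replicate 2. The part of this array-wide difference in the posterior signals was not tested.

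**Figure D2:**
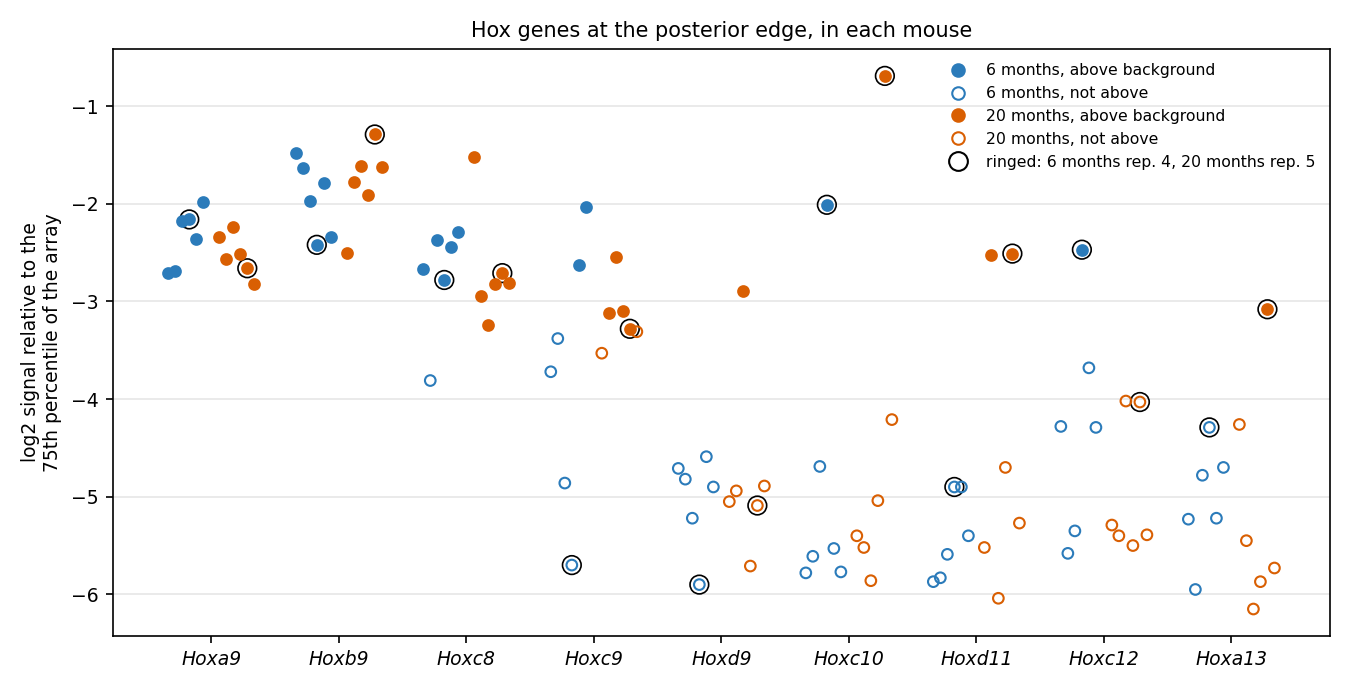
Log2 signal relative to the 75th percentile of the array for Hox genes at the posterior end of detection, 1 point per mouse (blue 6 months, orange 20 months, filled where well above background, ringed for 6 months replicate 4 and 20 months replicate 5). Hoxa9 and Hoxb9 are filled in all 12 mice, and the filled points of Hoxc10, Hoxc12 and Hoxa13 are all ringed.

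The count of Hox genes above background on an array, detected by the rule or not, ran from 21 to 26. It was 21 to 24 in the 6 mice at 6 months and 22 to 26 in the 6 at 20 months, so the ages overlapped. The highest count was in 20 months replicate 5, where 55.5% of gene probes were above background. It included 3 genes of groups 10 to 13, which were not detected by the rule.

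No Hox gene was called changed between the ages. Of the 23 genes that passed the filter, 0 were called at an adjusted p (Benjamini-Hochberg over all 16919 genes tested, limma) under 0.05, where 50 of all genes, or 0.296%, were called. At an unadjusted p under 0.05 it was 0 of 23 in limma, where all genes gave 7.98%. The number of Hox genes with the 6 values of the ages apart was 0, beside 0.804% of all genes. Changes were positive in 9 and negative in 14, with a median of -0.07 (all genes -0.02) and a range from -0.36 for Hoxd4 to 0.57 for Hoxc9. For 22 of 23 genes the 95% interval of the change lay within 2-fold in either direction, and for 16 within 1.5-fold, so smaller changes could not be told from the spread of 6 mice per age. The exception at 2-fold was Hoxc9. Without the 2 arrays that stood apart it was again 0 of the Hox genes that were called, and 7 of all genes.

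**Figure D3:**
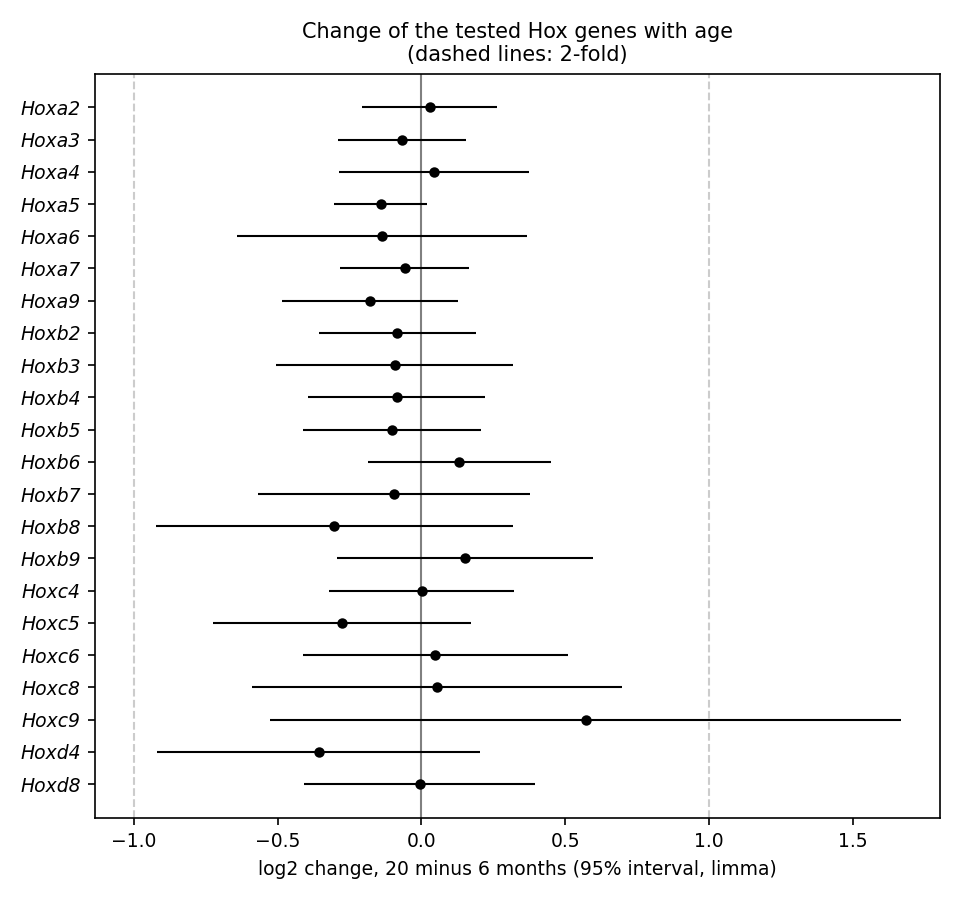
Change of 22 tested Hox genes, 20 minus 6 months, on the log2 scale (points) with the 95% interval of the limma fit (bars) and 2-fold change in either direction (dashed lines). All intervals include 0, and only that of Hoxc9 crosses a dashed line.

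In the Hoxa cluster 3 genes had positive and 5 negative changes, from -0.18 to 0.04. Hoxa7, a trunk gene of the group that also holds Hoxb7, ran from 3.42 to 4.02 at 6 months (median 3.69) and from 3.51 to 3.85 at 20 months (median 3.60). Its change was -0.06 ± 0.10 (SE of the fit, as for every change given with ±; adjusted p = 0.910), and it was -0.07, 0.04 and -0.14 on slides 1, 2 and 3. Hoxa3, which patterns the pharyngeal arches and the vessels and glands formed from them, ran from 2.76 to 3.37 (median 2.93) and from 2.82 to 3.09 (median 2.90). Its change was -0.07 ± 0.10 (adjusted p = 0.892), with -0.11, 0.03 and -0.12 on the 3 slides. For both genes the values at 20 months fell inside the range at 6 months.

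Hoxa5, a regulator of lung and skeletal patterning, had the smallest p of the Hox genes. Its values ran from 0.38 to 0.71 at 6 months (median 0.57) and from 0.29 to 0.52 at 20 months (median 0.42), and the mean went from 0.55 ± 0.12 to 0.41 ± 0.09 (SD, n = 6 each). The change of -0.14 ± 0.08 (95% interval -0.30 to 0.02) did not pass (limma, unadjusted p = 0.0816, adjusted p = 0.680). It was -0.17 on slide 1, 0.01 on slide 2 and -0.26 on slide 3. Hoxa5 also had a small spread between mice of the same age, with 9.5% of all genes tested lying below it. Hoxa9 ran from -2.71 to -1.98 (median -2.27) and from -2.82 to -2.24 (median -2.54), a change of -0.18 ± 0.14 (adjusted p = 0.771) with -0.02, -0.41 and -0.10 on the slides. The changes of Hoxa2, Hoxa4 and Hoxa6 lay between -0.14 and 0.04.

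In the Hoxb cluster 2 genes had positive and 6 negative changes. Hoxb6, a gene of trunk and limb mesoderm, ran from 1.5 to 2.40 at 6 months (median 1.75) and from 1.82 to 2.16 at 20 months (median 2.03). Its change of 0.13 ± 0.15 (adjusted p = 0.836) was 0.09, 0.26 and 0.05 on the 3 slides. Hoxb4, known for its part in blood stem cell growth, ran from 1.32 to 2.08 (median 1.88) and from 1.48 to 2.09 (median 1.68), a change of -0.09 ± 0.14 (adjusted p = 0.903), with -0.28, 0.08 and -0.06 on the slides.

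Hoxb8, expressed in the posterior trunk and in early myeloid cells, had the largest negative change of the cluster, -0.30 ± 0.29 (adjusted p = 0.807). Its values ran from -1.40 to 0.23 at 6 months (median -0.74) and from -1.56 to -0.40 at 20 months (median -1.05), so the ages overlapped widely. The difference was -1.01 on slide 1 and 0.02 and 0.08 on slides 2 and 3. It was 0.01 without 6 months replicates 1 and 4 and 20 months replicate 1, whose markers of other tissues are described further on. Changes of Hoxb2, Hoxb3, Hoxb5, Hoxb7 and Hoxb9 lay between -0.10 and 0.15. The further Hoxb3 probe changed by 0.00 ± 0.16, beside -0.09 ± 0.19 for the probe that stands for the gene (limma over all 27583 probes).

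In the Hoxc cluster 4 genes had positive changes and 1 a negative change. Hoxc6, active in the thoracic trunk, ran from 0.95 to 2.39 at 6 months (median 1.62) and from 1.48 to 2.23 at 20 months (median 1.72), a change of 0.05 ± 0.21 (adjusted p = 0.969), with 0.29, 0.31 and -0.46 on the slides. Hoxc4 ran from -0.25 to 0.61 (median 0.13) and from -0.22 to 0.39 (median 0.20), a change of 0.00 ± 0.15 (adjusted p = 0.998), with 0.06, 0.00 and -0.05. Hoxc5 ran from -2.46 to -1.32 (median -1.53) and from -2.47 to -1.46 (median -2.08). Its change of -0.28 ± 0.21 (adjusted p = 0.762) was -0.16, -0.32 and -0.35 on the slides. Hoxc5 was thus the 1 Hoxc gene with a negative difference on each slide.

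Hoxc9, a thoracic gene that helps to set up motor neuron columns in the spinal cord, had the largest change, 0.57 ± 0.51 (95% interval -0.53 to 1.67, adjusted p = 0.793). The spread at 6 months, 1.37 (SD, n = 6), was wider than the 0.34 at 20 months, and 6 of the 12 values were not above background, so the size rests on dim signals. The difference was 0.79, 0.96 and -0.04 on slides 1, 2 and 3. It was 0.17 without 6 months replicate 4 and 0.34 without 6 months replicate 3, the mice with the lowest values. With normexp background correction, which shrinks dim signals, it was 0.03. Hoxc8, its neighbour, changed by 0.05 ± 0.30, with 0.86, -0.20 and -0.49 on the slides.

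In the Hoxd cluster both detected genes had negative changes. Hoxd4, a gene of the hindbrain and neck vertebrae, ran from -3.50 to -1.71 at 6 months (median -2.14) and from -3.04 to -2.30 at 20 months (median -2.69). Its change of -0.36 ± 0.26 (95% interval -0.92 to 0.20, adjusted p = 0.762) was -0.66, 0.13 and -0.54 on the slides. The lowest value, in 6 months replicate 5, was the 1 of 12 that was not above background, and without that mouse the change was -0.59 (adjusted p = 0.329, limma). Hoxd8, a gene of the trunk, ran from -3.0 to -1.97 (median -2.39) and from -2.96 to -1.96 (median -2.32), a change of -0.01 ± 0.19 (adjusted p = 0.996), with 0.21, 0.14 and -0.37.

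**Figure D4:**
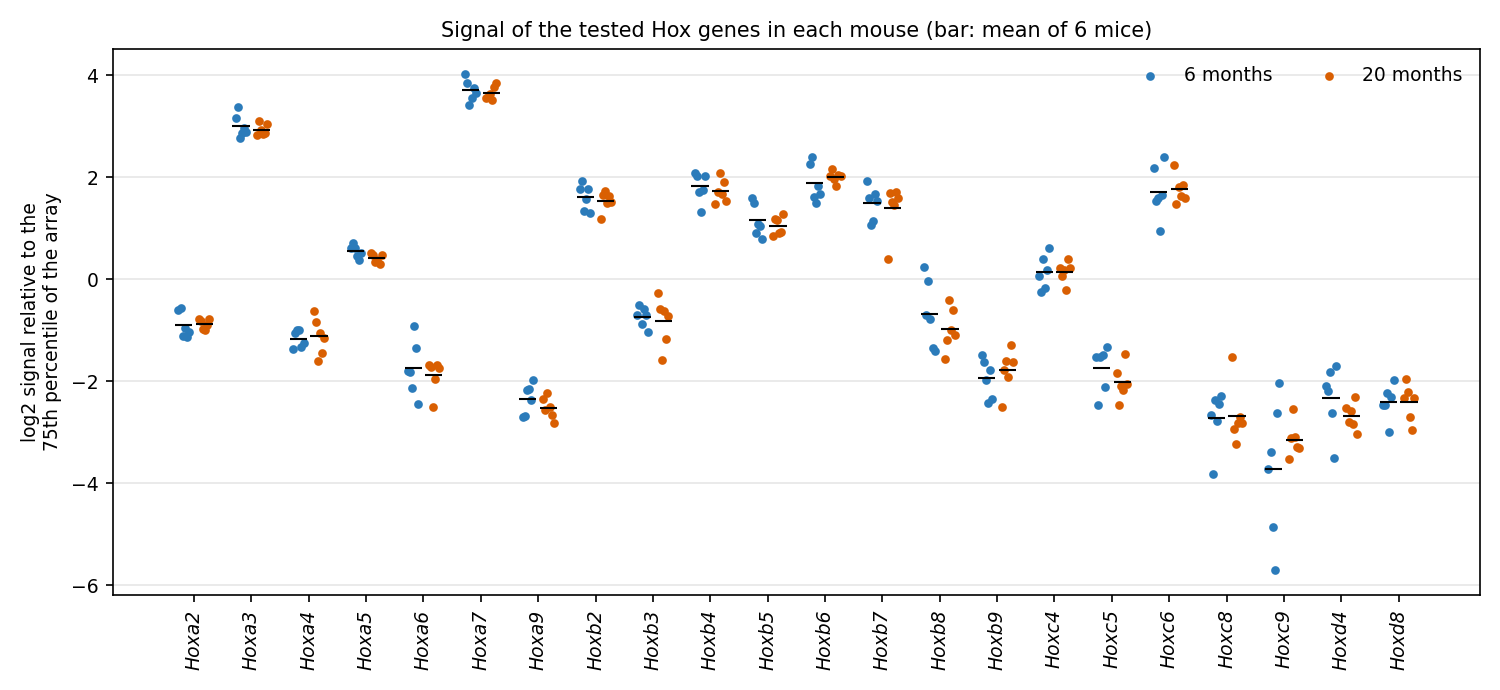
Log2 signal relative to the 75th percentile of the array for 22 tested Hox genes, 1 point per mouse (blue 6 months, orange 20 months) with the mean of 6 mice as a bar. The ages overlap for every gene shown, and the points of Hoxc9 at 6 months spread from -5.70 to -2.03.

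Hox genes differed between mice of the same age. The median SD within an age was 0.28 for the 23 Hox genes and 0.20 for all genes tested, given as a description. By cluster it was 0.19 for Hoxa (8 genes), 0.32 for Hoxb (8 genes), 0.41 for Hoxc (5 genes) and 0.43 for Hoxd (2 genes). The SD of Hoxc9 exceeded that of 99.4% of all genes, that of Hoxc8 96.2%, Hoxb8 95.7%, Hoxd4 94.0% and Hoxa6 91.3%. Of these, Hoxc9 was above background on 6 of 12 arrays and Hoxc8 and Hoxd4 on 11, while Hoxb8 and Hoxa6 were so on all 12. For Hoxa3 and Hoxa7, the Hoxa genes of highest mean signal, it was 39.4% and 40.4%. The SDs were not compared at matched signal, so the part of dim signal in these differences was not tested.

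Members of a cluster lay on the same side of their age's mean in some mice. In 6 months replicate 1 all 8 Hoxb genes lay above the mean of their age, by 0.38 on average, and in 6 months replicate 2 it was 7 of 8, by 0.25. Over all genes tested, 59.8% and 50.5% lay above in these mice. In 6 months replicates 3 and 4, 1 of 8 Hoxb genes did so, beside 45.8% and 46.4% of all genes tested. The Hoxc genes had another order of mice. All 5 lay above in 6 months replicate 6, where 55.1% of all genes tested did. They did so by 0.74 on average, and by 0.50 without Hoxc9, which deviated most. In 6 months replicate 4, 1 of 5 lay above and the mean deviation was -0.57, but -0.22 without Hoxc9, which was not above background there. In 6 months replicate 2 it was also 1 of 5, with a mean of -0.41, and -0.24 without Hoxc8. In 20 months replicate 1 the Hoxc mean was 0.30, and 0.08 without Hoxc8, so it rests on that gene. The Hoxb mean of that mouse was -0.32, and -0.22 without Hoxb7. In 6 months replicate 1 the Hoxb mean was 0.31 without Hoxb8. For Hoxa the means lay between -0.12 and 0.10 in all 12 mice. These mice were picked out after their values were seen.

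**Figure D5:**
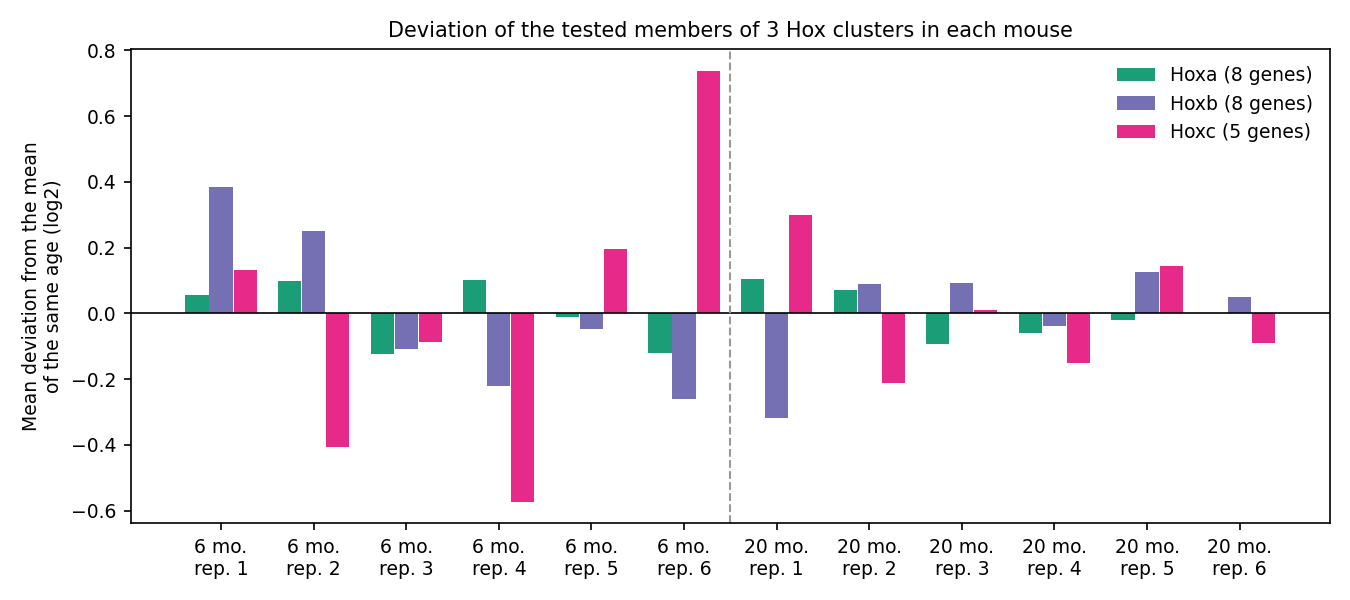
Mean deviation (log2) of the tested Hoxa, Hoxb and Hoxc genes from the mean of the same age, for each of the 12 mice, with 8, 8 and 5 genes per bar. Hoxb is highest in 6 months replicate 1 (0.38) and Hoxc in 6 months replicate 6 (0.74, or 0.50 without Hoxc9), while Hoxa stays between -0.12 and 0.10.

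Non-Hox probes lay inside the clusters too, between the outermost Hox probes of each. There were 39, of which 22 were above background on at least 6 arrays, beside 27583 of 55630 over all gene probes kept. Of the 39, 18 read the strand opposite to the Hox genes, 9 of the latter being above background. Several of the probes read the same transcript, so these are not counts of separate transcripts. Of the 22, 0 were called in the fit over all probes, which called 71 of 27583 (0.257%), and 1 had an unadjusted p under 0.05 in limma, where all probes gave 7.56%. This was the probe of ENSMUST00000114435, on the opposite strand to Hoxa3, whose own probe it overlaps by 40 bases, with a change of -0.31 ± 0.12 (adjusted p = 0.591), named after its value was seen. Hoxa11as, the antisense transcript of Hoxa11, was above background on all 12 arrays, from -2.80 to -2.03 at 6 months and from -2.72 to -2.26 at 20 months (change 0.14 ± 0.13, adjusted p = 0.814). The Hoxa11 probe itself was above background on 0 of 12.

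HOTAIR, the noncoding RNA from between Hoxc12 and Hoxc11 on the opposite strand, had 5 probes. Of these, 1 was above background on all 12 arrays (change -0.35 ± 0.27, adjusted p = 0.793), another on 1 array and 3 on none, so the probes disagree. The flanking genes Hoxc12 and Hoxc11 were on 1 and 0 arrays. Gm4200, on the opposite strand between Hoxc10 and Hoxc9, was above background on 12 of 12, with a change of -0.17 ± 0.15. The clone transcripts 0610040B09Rik (opposite strand, between Hoxb7 and Hoxb6), 2700086A05Rik (between Hoxa6 and Hoxa7) and AI448005 (between Hoxd4 and Hoxd3) were also on 12 of 12, and changed by 0.06 ± 0.13, 0.14 ± 0.14 and 0.08 ± 0.28. None of these passed.

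The genes that work with or upon the Hox clusters were also looked at, as 5 lists, and 0 members of any list were called (limma), beside 0.296% of all genes. At an unadjusted p under 0.05, the counts that follow stand beside 7.98% of all genes tested. Of the Hox cofactors of the Pbx, Meis and Pknox families, 8 of 9 passed the filter, the exception being Pbx4, with 2 positive and 6 negative changes and a median of -0.05. The smallest p belonged to Pbx2 (-0.10 ± 0.07), Meis1 (-0.14 ± 0.09) and Meis2 (-0.12 ± 0.09), and 0 had an unadjusted p under 0.05. Of 27 Polycomb and Trithorax genes 26 were tested, 11 with positive and 15 with negative changes (median -0.06), and 4 had an unadjusted p under 0.05. These were Ezh2, the histone H3 lysine methyltransferase of Polycomb repressive complexes (-0.59 ± 0.20, adjusted p = 0.392), Kdm6b, a demethylase that removes that mark (-0.27 ± 0.09, adjusted p = 0.426), Jarid2, a Polycomb recruiting factor (-0.24 ± 0.08, adjusted p = 0.440), and Pcgf2, named after its value was seen (-0.20 ± 0.09, adjusted p = 0.596).

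Of 18 retinoic acid genes, 14 were tested, 7 with positive and 7 with negative changes (median 0.00). Among them 0 had an unadjusted p under 0.05 in limma, and this and the counts below again stand beside 7.98% of all genes tested. The receptor gene Rxrb (-0.13 ± 0.07) and the retinaldehyde dehydrogenase genes Aldh1a1 (0.17 ± 0.13) and Aldh1a3 (0.21 ± 0.17) had the smallest p. Of 18 cluster neighbours and other axial regulators on the array, 10 were tested. The probes that stand for Evx1 and Evx2, the homeobox genes at the posterior end of the Hoxa and Hoxd clusters, were never above background. The same held for the probes that stand for Cdx1 and Cdx4, which induce Hox genes in the embryo. Lnpk, next to Hoxd and Evx2, had the 1 unadjusted p under 0.05 (-0.33 ± 0.12, adjusted p = 0.434), and Skap2 (0.10 ± 0.06) and Snx10 (-0.37 ± 0.23) followed. Of 25 regional transcription factors of vessel wall and heart, 21 were tested, with 15 positive and 6 negative changes and a median of 0.12. Tbx2 had the 1 unadjusted p under 0.05 (0.40 ± 0.15, adjusted p = 0.488), followed by Foxc2 (0.27 ± 0.16) and Isl1 (-0.29 ± 0.18). The probes that stand for Gata4 and Hand1 were never above background.

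Markers of the vessel wall were above background, and so were those of other tissues. All 8 smooth muscle, 8 endothelial and 7 fibroblast markers passed the filter, and their mean deviation from the 12-array mean ran from -0.39 to 0.31 over the 12 arrays. All 8 heart muscle, 6 macrophage, 5 white adipocyte and 5 brown adipocyte markers and 5 of 6 mesothelial markers passed as well. Passing the filter therefore does not tell the vessel wall from other tissue. Heart muscle markers were high in 20 months replicate 1 (3.35) and 6 months replicate 1 (2.22), and T and NK cell markers in 6 months replicate 4 (1.9). Mesothelial markers ran from -0.28 to 2.36 at 6 months and from -2.02 to 0.75 at 20 months, and brown adipocyte markers from -0.40 to 1.22 and from -0.70 to 0.95. At 20 months, mesothelial values lay between -2.02 and -1.31 in replicates 1, 2, 3 and 6. Brown adipocyte values there lay between -0.70 and -0.45 in all mice but replicate 1, below every mouse at 6 months. The median changes of the 2 lists were -1.9 and -0.64, with 0 members called in either, so these markers were mostly lower at 20 months. In 6 months replicate 1 the Hoxb genes were high, and in 20 months replicate 1 they were low, while heart muscle markers were high in both. The part of these other tissues in the Hox values was not tested. Each of the 3 slides held 2 arrays of each age, but all arrays at 20 months lay in column 3 and none at 6 months did, so that slide column and age cannot be told apart.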

How the data were processed

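The authors deposited, per the file headers, scanner output of Agilent Feature Extraction 10.7.1.1 (protocol GE1_107_Sep09, design 028005, probe positions on mm9), whose processed signal is an intensity with background subtracted and no scaling between arrays. The deposited value table of log2 values, whose steps are not given in the sources used here, served as an alternative. After outlier-flagged spots had been dropped, replicate spots were averaged on the log2 scale and scaled by subtracting the array's 75th percentile, and 55630 of 55681 gene probes were kept. Probes were named through a RefSeq gene table (26395 by accession, 3851 by symbol, 5505 by the array's name, 19879 unnamed). The probe with the highest mean stood for its gene, and the gene entered if that probe was well above background on at least 6 of 12 arrays. In the fit over all probes, each probe entered by the same rule. The age comparison used lmFit and eBayes of limma 3.58.1 (R 4.3.3, with data.table at version 1.17.8), a model with age alone, Benjamini-Hochberg adjusted over all genes, and called at an adjusted p under 0.05. The procedure was tested on simulated data, drawn as independent normal values. These held no array, slide or tissue effects, so that test cannot speak for such effects here.

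Named with full statistics were up to 2 Hox genes of highest mean signal per cluster, the 4 with the smallest p, the 3 with the largest change and up to 3 members of each related list by p. The members and lists were chosen with earlier results of these data known. Alternatives were normexp (offset 50), quantile and median scaling, the value table, no filter or a filter on 12 arrays, the slide as a block or alone, the replicate number as a block, other variance settings, other probe rules and arrays left out. Precision is limited by the number of arrays. Some members counted in the totals are not reported here by name.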

Additional observations from a re-analysis of the deposited data

Results flagged for a closer look

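Among the 23 tested Hox genes, 1 mouse lay apart from the other 5 in 4 of 46 groups of 6 mice, its gap to the nearest exceeding the 95% critical value of Dixon's test. Chance flags about 1 in 20 groups. Hoxa6 stood at -2.5 in 20 months replicate 3, the next value being -1.95, and Hoxb7 at 0.40 in 20 months replicate 1, the next being 1.45. Hoxc8 stood at -3.81 in 6 months replicate 2, where it was not above background (next -2.78), and at -1.52 in 20 months replicate 1 (next -2.71). The latter array was also the highest in heart muscle markers, whose part was not tested.

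Another 3 groups concern genes not detected by the rule. These genes were looked at because they were above background on at least 1 array, which is the array that lies apart, so their number is not read against chance. Hoxc10 stood at -2.01 in 6 months replicate 4 (next -4.69) and at -0.69 in 20 months replicate 5 (next -4.21), the 2 arrays that share 804 probes above background with each other alone. Hoxd9 stood at -2.89 in 20 months replicate 3 (next -4.89), on an array with 50% of gene probes above background.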

How the results depend on the processing

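Under 29 alternatives 0 Hox genes were called, and the smallest adjusted p of any was 0.329 (Hoxd4, limma). In 658 pairs of gene and alternative 0 passed and 74 changed sign. Hoxb6, Hoxc5 and Hoxa9 kept theirs throughout. The median Hox change ran from -0.12 to 0.03. The related lists gave 0 calls under each of the 29, with 75 to 96 of their genes tested. Detected Hox genes numbered 20 on all 12 arrays, 28 on at least 1, and 22 or 23 with an array left out.

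The count of all changed genes, 50, rose to 67 and 73 with the slide as a fixed and a random block, and 71 probes were called when every probe was tested. It was 30 with median scaling, 23 without the filter, 1, 1 and 0 on slides 1, 2 and 3 alone, 29 without 6 months replicates 1 and 4 and 20 months replicate 1, and 7 without 6 months replicate 4 and 20 months replicate 5, a choice made after seeing the data. Leaving out 1 array gave 19 (20 months replicate 2) to 58 (6 months replicate 6). Each slide alone has 2 arrays per age, and every omission leaves fewer samples. For the others the cause was not tested. Replicate numbers were not taken to pair mice. Correlations of deviations between mice of the same number ran from -0.36 to 0.32, which cannot show whether mice had been matched. With the replicate block 6 genes and 0 Hox genes were called.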
